A study of Homo sapiens with 6 samples.

Results

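The IFIT, IFITM and ISG15 genes are a small set of antiviral genes that interferon switches on. The 8 members examined here were taken by gene symbol: IFIT1, IFIT2, IFIT3, IFIT5, IFITM1, IFITM2, IFITM3 and ISG15, all of which were found, among 18164 genes in all. RNA-seq had been carried out on HEK293, a human embryonic kidney cell line in wide use, transformed with adenoviral DNA, here a commercially supplied suspension line. The transfected group (n = 3 libraries) had received a pair of plasmids together with a polymer reagent so that it would make adeno-associated virus (AAV), and was collected 18 h afterwards. The untransfected group (n = 3) was collected at the same time and had been given PBS instead of DNA and reagent, so the comparison covers DNA, reagent and vector production at once. The labels number the libraries 1 to 3 in each group without saying that they were separate cultures. The p-values rest on the variation among these libraries alone, part of which may be technical. Values are TPM, which divides out transcript length and sums to the same total in every library, so levels can be compared between genes. The sequencing depth of each library is unknown, and vector transcripts were not analysed here.

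In textbook terms, viral nucleic acid is met by sensors whose adaptors activate IRF3, IRF3 helps to switch on interferon, and secreted interferon acts through JAK kinases on a complex that includes STAT2 and IRF9. That complex binds the interferon-stimulated response element (ISRE) in promoters, and activated IRF3 can act on some of the same elements without interferon. IFIT proteins are tetratricopeptide-repeat proteins that bind viral RNA or act on translation, IFITM proteins are small membrane proteins that hinder fusion of virus and cell membranes, and ISG15 is a ubiquitin-like protein that is attached to other proteins.

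Promoter sequences of 6 of the 8 members were found in a RefSeq table (GRCh38.p14, 250 bases before to 50 after the start site, IFIT3 with 2 start sites). IFIT2 and IFITM2 were not matched. The windows were searched on both strands for the core of the ISRE, GAAANNGAAA, whose reverse complement is TTTCNNTTTC. All 6 matched members held the core, at least 2 times in each window, whereas 3.57% of all 35116 windows in the table held it. Those of 4 members are printed because these genes share the element and yet differed in how they moved: IFIT1 did not pass the test, IFIT5 and ISG15 rose and IFITM1 fell. Capitals mark matches to the ISRE core; the sequences are written 5′ to 3′ along the gene.
IFIT1, chr10:89392373-89392672, plus strand: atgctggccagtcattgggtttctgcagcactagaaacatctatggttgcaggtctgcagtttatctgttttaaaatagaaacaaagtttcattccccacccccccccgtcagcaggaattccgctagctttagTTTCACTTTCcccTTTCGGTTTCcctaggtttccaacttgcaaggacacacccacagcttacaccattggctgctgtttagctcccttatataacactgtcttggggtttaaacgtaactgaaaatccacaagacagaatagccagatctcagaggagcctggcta
IFIT5, chr10:89414318-89414617, plus strand: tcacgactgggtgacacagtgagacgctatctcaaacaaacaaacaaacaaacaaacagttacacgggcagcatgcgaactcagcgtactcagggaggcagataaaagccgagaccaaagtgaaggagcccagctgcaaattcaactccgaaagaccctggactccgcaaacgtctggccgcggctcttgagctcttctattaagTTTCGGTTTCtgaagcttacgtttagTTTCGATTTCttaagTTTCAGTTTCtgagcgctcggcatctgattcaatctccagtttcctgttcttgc
ISG15, chr1:1013247-1013546, plus strand: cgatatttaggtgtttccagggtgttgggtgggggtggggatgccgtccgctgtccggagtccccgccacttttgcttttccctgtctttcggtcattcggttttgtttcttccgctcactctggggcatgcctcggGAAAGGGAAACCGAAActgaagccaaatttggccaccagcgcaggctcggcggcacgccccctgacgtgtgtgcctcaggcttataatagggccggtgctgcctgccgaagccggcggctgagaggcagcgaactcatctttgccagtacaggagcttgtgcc
IFITM1, chr11:313790-314089, plus strand: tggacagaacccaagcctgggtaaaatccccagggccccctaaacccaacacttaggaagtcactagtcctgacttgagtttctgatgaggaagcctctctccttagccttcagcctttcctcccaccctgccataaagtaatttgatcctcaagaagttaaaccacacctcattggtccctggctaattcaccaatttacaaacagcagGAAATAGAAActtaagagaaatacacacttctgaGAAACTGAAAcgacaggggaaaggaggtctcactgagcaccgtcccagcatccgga

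The 2 matches in ISG15 overlap each other and run from position -113 to -98 relative to the start site. IFIT1 has its matches at -116 to -107 and -103 to -94. The 3 matches of IFIT5 lie closer to the start, the first at -45 to -36 and the last at -4 to 6. In IFITM1 they lie at -40 to -31 and -6 to 4, and IFITM1 was the 1 member with a match to the gamma-activated sequence core TTCNNNGAA (-12 to -4), found in 7.66% of all windows. A match is a description of the letters, and binding was not measured.

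The members did not move as 1 group. limma was run on log2(TPM + 1) for every gene that reached 1 TPM in 3 or more of the 6 libraries, and p-values were adjusted over all 16145 tested genes, with a threshold of 0.05; all 8 members were among them. IFIT2, IFIT5 and ISG15 were higher in transfected cells, IFITM1 and IFITM2 were lower, and IFIT1, IFIT3 and IFITM3 did not pass. Thus 3 of 8 were called higher, where 20.04% of all tested genes were, and 2 of 8 lower, where 10.18% were. The members' counts were the same under the 3 other scalings, while the background moved: 2999 genes were higher and 2874 lower of 16127 after median-ratio scaling, 2922 and 2887 of 16145 after quantile normalization, and 2749 and 3241 of 16797 with mitochondrial and the most abundant genes removed, against 3236 and 1644 of 16145. For 5 of the 8 the values of the groups did not overlap, and the same held for 46.46% of all tested genes. The members' median log2 fold was 0.02, beside 0.05 over all tested genes, and their median absolute log2 fold was 0.39, beside 0.19.

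**Figure D1:**
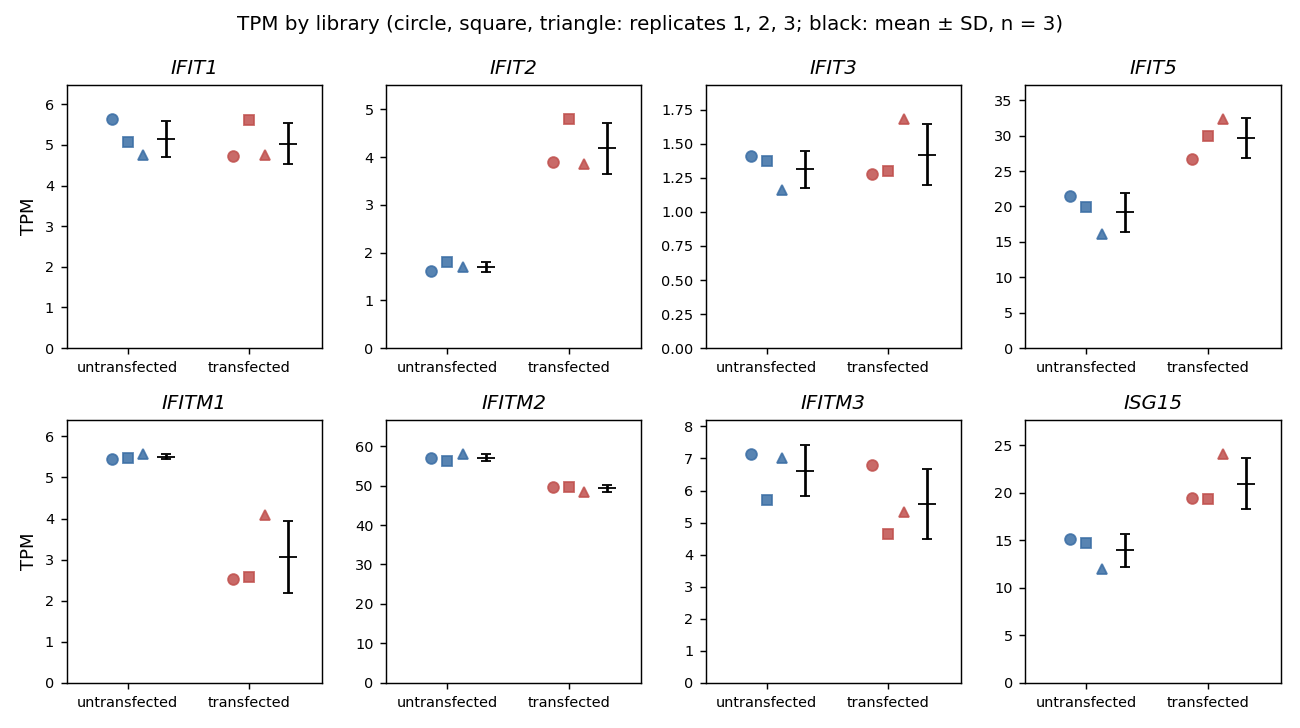
TPM of each member in each library (y axis, from 0, a separate scale for each gene), untransfected in blue and transfected in red, with the mean ± SD of 3 libraries in black. IFIT2, IFIT5 and ISG15 lie higher and IFITM1 and IFITM2 lower in all 3 transfected libraries; IFIT1, IFIT3 and IFITM3 overlap between groups.

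IFIT2 (ENSG00000119922, chromosome 10, 89283694 to 89309276, plus strand) encodes an IFIT that joins IFIT1 and IFIT3 in a complex and has been linked to cell death. It measured 1.61, 1.81 and 1.69 TPM in untransfected replicates 1 to 3 and 3.89, 4.79 and 3.86 TPM in transfected replicates 1 to 3. Every transfected library lay above every untransfected one, and the ratio of the mean TPM was 2.45. The log2 fold on the log2(TPM + 1) scale was 0.93 with SE 0.11 (limma, adjusted p = 0.00102), above that of 98.5% of tested genes or level with it. Because the gene is low, this scale compresses the change: a pseudocount of 0.1 gave 1.24 and a pseudocount of 5 gave 0.45, both past the threshold.

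IFIT5 (ENSG00000152778, chromosome 10, 89414586 to 89421001, plus strand), whose product binds RNA with a triphosphate end and acts without the other IFITs, was the most abundant of the 4 IFIT genes. Its TPM was 21.5, 19.9 and 16.1 in the untransfected and 26.7, 30.0 and 32.3 in the transfected libraries. The groups did not overlap, and the log2 fold was 0.61 with SE 0.11 (limma, adjusted p = 0.00623). The highest untransfected and the lowest transfected value differed less than the libraries within either group did.

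IFIT1 (ENSG00000185745, chromosome 10, 89392546 to 89406486, plus strand), which binds RNA whose cap lacks ribose methylation, showed no detectable difference. It measured 5.63, 5.06 and 4.76 TPM in untransfected and 4.72, 5.62 and 4.76 TPM in transfected libraries, ranges that nearly coincide. The log2 fold was -0.03, with a 95% interval of -0.26 to 0.21 (limma, adjusted p = 0.858). IFIT3 (ENSG00000119917, chromosome 10, 89327894 to 89340971, plus strand), which stabilises IFIT1 binding to RNA, was the lowest member. Its untransfected libraries had 1.41, 1.37 and 1.16 TPM and its transfected libraries 1.28, 1.30 and 1.68 TPM. The interval of its log2 fold, -0.21 to 0.34 around 0.06 (limma, adjusted p = 0.725), does not reach the estimate of 0.93 for IFIT2. The sign of the fold turned for IFIT1 without any of 3 single libraries and for IFIT3 without transfected replicate 3.

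Ratios within a library do not depend on that library's scaling factor. IFIT2 to IFIT1 was 0.286, 0.358 and 0.355 in untransfected and 0.824, 0.852 and 0.811 in transfected replicates 1 to 3. IFIT2 thus stayed below IFIT1, but the gap narrowed in each transfected library. IFIT5 to IFIT1 was 3.71 ± 0.295 (mean ± SD, n = 3) in untransfected and 5.93 ± 0.761 in transfected cells, again without overlap. IFIT3 to IFIT1 overlapped, at 0.255 ± 0.0141 and 0.285 ± 0.0620. With 3 libraries against 3 a two-sided exact permutation test cannot give less than p = 0.1, which it gave for IFIT2 and IFIT5 (0.167 after adjustment over the 5 ratios computed), and p = 0.6 for IFIT3.

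**Figure D2:**
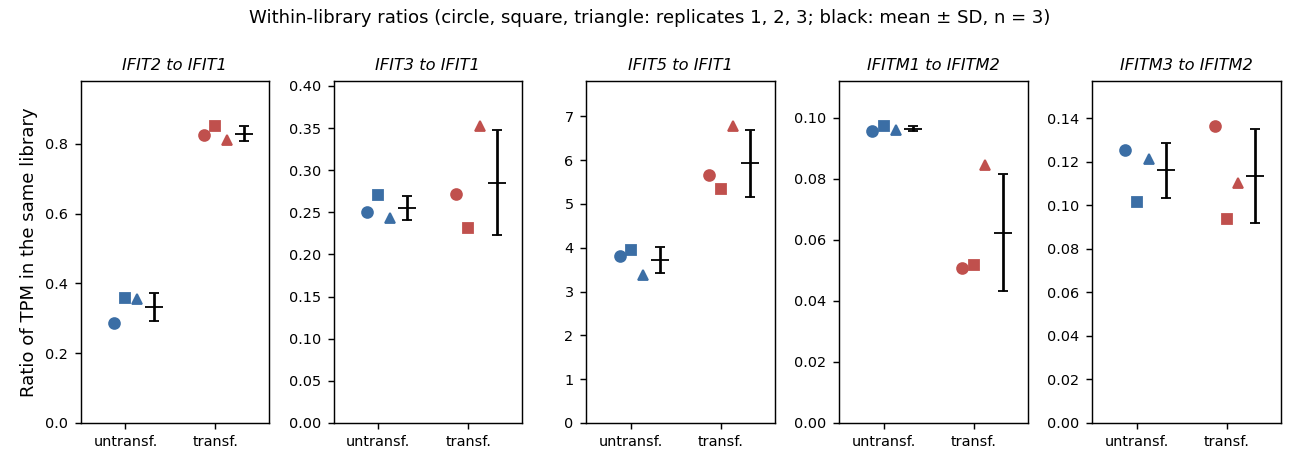
Ratio of the TPM of paired family members in the same library (y axis, from 0, a separate scale for each pair), untransfected in blue and transfected in red, with the mean ± SD of 3 libraries in black. IFIT2 to IFIT1 and IFIT5 to IFIT1 are higher and IFITM1 to IFITM2 is lower in all 3 transfected libraries; the other pairs overlap.

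Among the IFITM genes, IFITM1 (ENSG00000185885, chromosome 11, 313506 to 315272, plus strand), whose product sits mainly at the cell surface, fell. It measured 5.46, 5.47 and 5.57 TPM in the untransfected and 2.53, 2.57 and 4.08 TPM in the transfected libraries. The untransfected values were close together, and transfected replicate 3 lay between them and the other transfected libraries. The log2 fold was -0.70 with SE 0.15 (limma, adjusted p = 0.00951), and the ratio of the mean TPM was 0.556. A pseudocount of 5 gave -0.39, still past the threshold.

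IFITM2 (ENSG00000185201, chromosome 11, 307631 to 315272, plus strand), an endosomal IFITM, was the most abundant member in both groups. Untransfected libraries had 57.0, 56.2 and 58.0 TPM and transfected libraries 49.7, 49.7 and 48.4 TPM. The groups were separate but the change was small, with a log2 fold of -0.21 and SE 0.05 (limma, adjusted p = 0.0190). The call was lost without transfected replicate 2 (adjusted p = 0.0591), transfected replicate 3 (0.0910) or untransfected replicate 1 (0.0692), while the log2 fold stayed between -0.22 and -0.19 when single libraries were left out. IFITM3 (ENSG00000142089, chromosome 11, 319669 to 327537, minus strand), the other endosomal IFITM, measured 7.14, 5.70 and 7.03 TPM in untransfected and 6.79, 4.65 and 5.33 TPM in transfected libraries. Its groups overlapped, and the log2 fold of -0.22 had a 95% interval of -0.53 to 0.10 (limma, adjusted p = 0.266).

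IFITM1 to IFITM2 was 0.0958, 0.0974 and 0.0960 in untransfected replicates 1 to 3 and 0.0509, 0.0517 and 0.0844 in transfected ones, without overlap (exact permutation p = 0.1, the smallest possible here, 0.167 adjusted over the 5 ratios). IFITM3 to IFITM2 was 0.116 ± 0.0127 and 0.113 ± 0.0217 (SD, n = 3), with overlap and an exact permutation p = 0.9. IFITM2 made up 81.9% to 83.4% of the summed TPM of the 3 IFITM genes in untransfected and 83.7% to 87.3% in transfected libraries.

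ISG15 (ENSG00000187608, chromosome 1, 1001138 to 1014540, plus strand) rose. It measured 15.2, 14.7 and 11.9 TPM in the untransfected and 19.4, 19.4 and 24.1 TPM in the transfected libraries. All transfected values were above all untransfected ones, and replicate 3 was the lowest library in 1 group and the highest in the other. The log2 fold was 0.56 with SE 0.12 (limma, adjusted p = 0.00956), and the ratio of the mean TPM was 1.5.

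On the TPM scale the order of mean levels in untransfected cells was IFITM2, IFIT5, ISG15, IFITM3, IFITM1, IFIT1, IFIT2 and IFIT3. The 1 pair of neighbours in that order whose values overlapped was IFITM1 and IFIT1. In transfected cells the order was IFITM2, IFIT5, ISG15, IFITM3, IFIT1, IFIT2, IFITM1 and IFIT3, and from IFITM3 to IFITM1 each gene overlapped with the next. The median gene of the table had 11.7 TPM, so that IFITM2, IFIT5 and ISG15 were above it and the other 5 members below it.

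**Figure D3:**
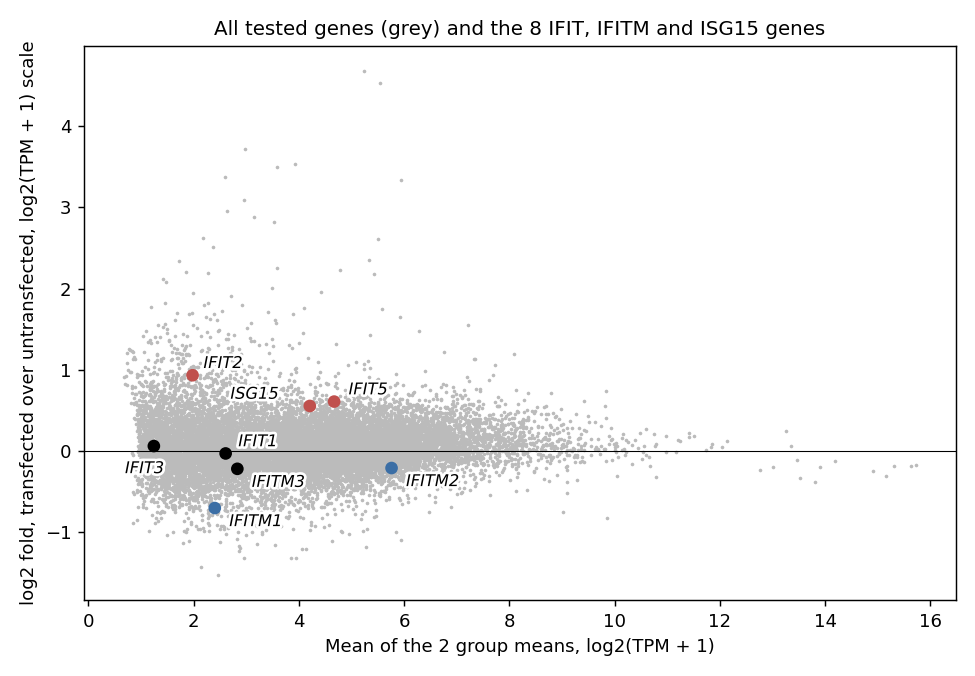
log2 fold of transfected over untransfected cells (y axis, log2(TPM + 1) scale) against mean level (x axis, log2(TPM + 1)) for all 16145 tested genes in grey, with the 8 members on top: red called higher, blue called lower, black not passed. All 8 members lie within the range of the other genes; IFIT2, at 0.93, is the highest of the 8 and IFITM1, at -0.70, the lowest.

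Some reads of these genes could belong to more than 1 gene, and how the authors assigned them is not known. The library kit keeps strand, per the labels, but whether the counting used it was not stated. In GENCODE release 29, 29.9% of the distinct 75-base stretches of the protein-coding IFITM1 transcripts also occur in transcripts of other genes, as do 26.4% of those of IFITM2 and 26.3% of those of IFITM3; 75 bases is the read length. The annotated span of IFITM2 contains IFITM1, with which it shares 289 such stretches. The division of reads between IFITM1 and IFITM2 is therefore uncertain. Of the IFITM3 stretches, 18.8% are shared with AC136475.5 on the opposite strand, 5.91% with IFITM1 and 5.65% with IFITM2. For IFIT2, 6.89% of stretches are shared with a noncoding transcript, AL353751.1, and for IFIT1, IFIT3, IFIT5 and ISG15 there were 0 shared stretches.

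The genomic neighbours did not move with the members at every locus. The 4 IFIT genes lie within 137308 bases of chromosome 10. LIPA, the lysosomal acid lipase gene, runs across IFIT2, IFIT3 and IFIT1 on the opposite strand. The stretches above were compared between annotated transcripts only. If strand was not used in counting, reads from LIPA introns that lie in these IFIT genes could be counted for them. LIPA measured 53.1, 52.1 and 39.1 TPM in untransfected and 34.4, 40.2 and 40.7 TPM in transfected libraries, with a log2 fold of -0.31 (limma, adjusted p = 0.0952). It passed as lower under the 3 other scalings (adjusted p = 0.0108 to 0.0135) and without untransfected replicate 3 (0.00622). On the side of IFIT2 the next coding gene with a row was the death receptor gene FAS, at 1.57 ± 0.0950 TPM without and 1.5 ± 0.144 TPM with transfection (log2 fold -0.04, adjusted p = 0.813). On the side of IFIT5 the transporter gene SLC16A12 was too low to be tested, at 0.777 ± 0.257 and 0.900 ± 0.171 TPM.

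At the IFITM locus the nearest coding gene with a row on each side fell with IFITM1 and IFITM2. These genes, PGGHG and B4GALNT4, lie 11524 and 42259 bases from the cluster. PGGHG, which encodes a glycosidase of collagen hydroxylysine, went from 31.3 ± 1.02 to 18.0 ± 0.899 TPM (log2 fold -0.77, limma, adjusted p = 0.000342). The glycosyltransferase gene B4GALNT4 went from 18.7 ± 0.409 to 15.4 ± 0.472 TPM (-0.26, adjusted p = 0.0171), a call that was lost without transfected replicate 2 or 3 or untransfected replicate 1 (0.0665 to 0.0688). ENSG00000254910, named AC136475.2 in GENCODE 29, an RNA annotated on the opposite strand within IFITM2, measured 11.18, 13.02 and 13.66 TPM in untransfected and 5.37, 5.47 and 7.11 TPM in transfected libraries, with a log2 fold of -0.97 (limma, adjusted p = 0.00122). It is not among the genes that share 75-base stretches with the coding IFITM2 transcripts. If strand was not used in counting, reads of either gene from where their spans overlap could still be counted for the other.

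ISG15 moved against both of its neighbours. HES4, a transcriptional repressor gene on the opposite strand, has its start 966 bases before the annotated ISG15 span. That span begins at 1001138, and the ISG15 promoter window printed above lies farther in, at 1013247 to 1013546. HES4 went from 87.8 ± 4.16 to 58.7 ± 5.56 TPM (log2 fold -0.58, limma, adjusted p = 0.00176). AGRN, the agrin gene on the other side, went from 36.2 ± 3.34 to 23.4 ± 2.09 TPM (-0.61, adjusted p = 0.00231). ISG15 was higher and both neighbours lower in 3 of 3 transfected libraries.

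**Figure D4:**
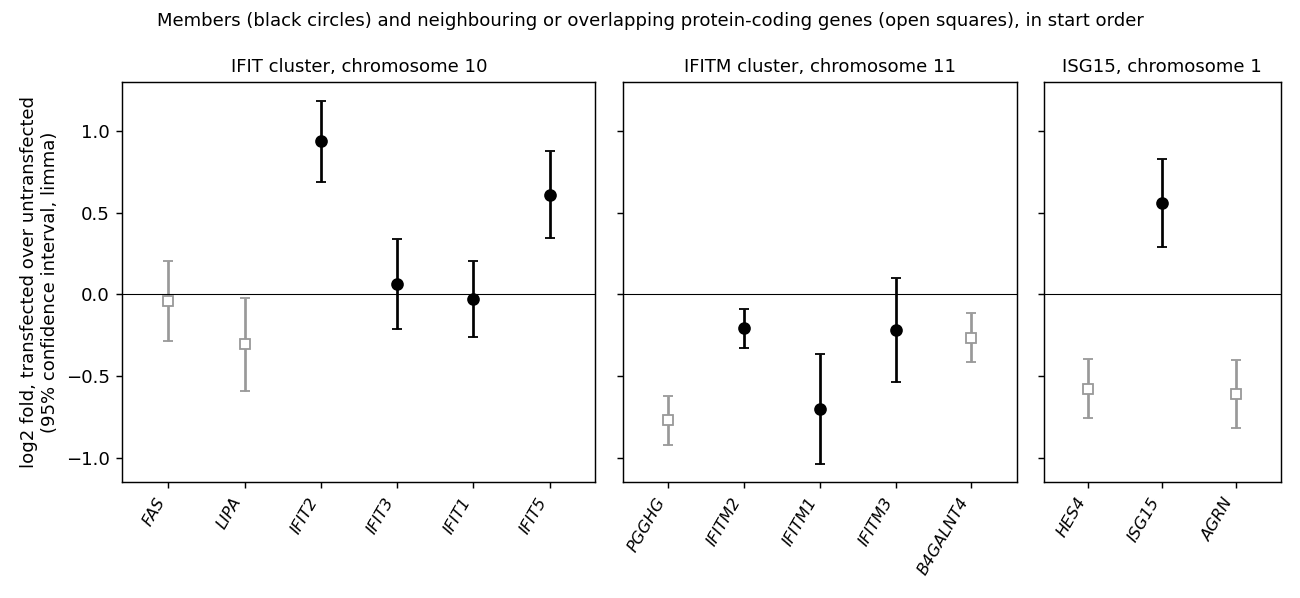
log2 fold of transfected over untransfected cells with its 95% confidence interval from limma (y axis) for the members (black circles) and the tested coding genes beside or across them (open squares), in order of start on each chromosome. IFIT2 and IFIT5 lie above 0 while IFIT3 and IFIT1 between them span 0; ISG15 lies above 0 between HES4 and AGRN, both below 0.

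Upstream of the members, 0 of the 22 interferon ligand genes on the list had a row, so their levels are unknown. Of 6 interferon receptor genes, 0 passed in either direction by limma, where 20.04% of all tested genes were higher and 10.18% lower. For 2 of the 6 the unadjusted p was under 0.05, both with higher values in transfected cells. These were IFNGR1 (log2 fold 0.29, limma, unadjusted p = 0.0245) and IFNLR1 (0.20, unadjusted p = 0.0363), the latter named after its values were seen. The median log2 fold of the 6 was -0.04. Without and with transfection, IFNGR1 measured 32.3 ± 3.48 and 39.7 ± 4.48 TPM and IFNGR2 39.9 ± 2.14 and 35.7 ± 3.04 TPM. After median-ratio scaling or quantile normalization IFNGR1 passed as higher (adjusted p = 0.0455 and 0.0397) and IFNGR2 as lower (0.0153 and 0.0176). With mitochondrial and the most abundant genes removed IFNGR2 passed (0.0110) and IFNGR1 did not (0.0759), and IFNGR1 also passed without transfected replicate 1 (0.0404).

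Of 13 tested JAK-STAT transducers and feedback inhibitors, 2 were higher and 3 lower, beside 20.04% and 10.18% of all tested genes. Their median log2 fold was -0.03. STAT2, a subunit of the complex that binds the ISRE, fell from 33.0 ± 1.62 to 23.2 ± 1.05 TPM (log2 fold -0.49, limma, adjusted p = 0.00168). The receptor-associated kinase gene TYK2 fell from 59.3 ± 1.24 to 45.1 ± 2.35 TPM, and PTPN6, a phosphatase that dampens cytokine signals, from 22.7 ± 0.983 to 13.6 ± 0.725 TPM. PIAS1, a SUMO ligase that restrains STAT signalling, measured 28.5 ± 0.587 TPM without and 33.4 ± 0.471 TPM with transfection, a call lost when any of 4 single libraries was left out (adjusted p = 0.0535 to 0.0760) or without mitochondrial and the most abundant genes (0.0750). IRF9, the DNA-binding partner of STAT2, named here after its values were seen, averaged 1.30 TPM without and 1.21 TPM with transfection and did not pass (limma, adjusted p = 0.868).

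Among 9 tested interferon regulatory factors and their partners 1 was higher and 1 lower, beside 20.04% and 10.18% of all tested genes. Their median log2 fold was 0.09. IRF2BP2, a corepressor gene, rose from 71.3 ± 1.88 to 100.4 ± 2.89 TPM. IRF3, the factor that links sensing to interferon genes, was at 63.8 ± 0.815 and 55.2 ± 3.79 TPM (log2 fold -0.21, limma, adjusted p = 0.0420), and this call was lost when any library other than transfected replicate 1 was left out (0.0582 to 0.139) and with no variance trend (0.0717). Of 22 listed sensors and adaptors 16 had a row and 13 were tested. Among these 13, 3 were higher and 1 lower, beside the same shares of all tested genes, with a median log2 fold of -0.02. LRRFIP1, a nucleic acid binding protein gene, rose from 22.1 ± 1.24 to 27.6 ± 0.813 TPM and EIF2AK2, the kinase PKR that senses double-stranded RNA, from 67.0 ± 2.40 to 79.4 ± 3.28 TPM. The EIF2AK2 call was lost without transfected replicate 2 or 3 (adjusted p = 0.0708 and 0.0539) and after quantile normalization (0.0553). The adaptor gene MAVS (log2 fold -0.47, adjusted p = 0.00106) and the DNA sensor gene IFI16 (0.36, adjusted p = 0.0234, and 0.0788 without transfected replicate 2) were the remaining calls. Over the alternatives the JAK-STAT genes had 0 to 2 higher and 3 to 4 lower calls, and the sensors and adaptors 1 to 4 higher and 1 to 3 lower calls, with 3 lower after median-ratio scaling and with mitochondrial and the most abundant genes removed.

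Of 8 tested genes of ISG15 conjugation and removal, 1 was higher and 2 lower, beside 20.04% and 10.18% of all tested genes. Their median log2 fold was 0.15. UBE2L6, the ISG15 conjugating enzyme, fell from 39.6 ± 2.92 to 30.7 ± 0.633 TPM (log2 fold -0.35, limma, adjusted p = 0.00715). TRIM25, a ligase, was at 18.2 ± 0.599 and 15.4 ± 0.755 TPM, and its call (adjusted p = 0.0395) did not survive dropping any single library except untransfected replicate 3 (0.0672 to 0.153). USP16, which can remove ISG15, was at 61.0 ± 8.46 and 78.2 ± 8.43 TPM (adjusted p = 0.0482), lost without transfected replicate 2 or 3 or untransfected replicate 1 or 3 (0.0721 to 0.160), with no filter on low values (0.0539) and with no variance trend in the fit (0.0716). The other 5 did not pass; among them the main protease gene USP18 averaged 36.9 and 38.4 TPM and the ligase gene HERC5 26.4 and 29.3 TPM in untransfected and transfected cells, both named after their values were seen.

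Of 56 other interferon-stimulated effectors listed, 44 had a row and 33 were tested. Genes without a row or under the filter are not in the counts that follow. Of the 33 tested, 2 were higher and 6 lower, beside 20.04% and 10.18% of all tested genes. Their median log2 fold was -0.02. Over the alternatives 2 to 3 effectors were higher and 5 to 9 lower. SHFL, an inhibitor of viral translation, fell from 3.96 ± 0.312 to 1.98 ± 0.0666 TPM and IFI35 from 12.4 ± 1.04 to 7.83 ± 0.531 TPM. DTX3L, a ubiquitin ligase gene, rose from 26.0 ± 0.781 to 38.1 ± 1.10 TPM (limma adjusted p of these 3 genes 0.000809 to 0.00251). Of 9 listed relatives and trafficking partners of the members, 6 had a row and all 6 were tested. Among these 6, 1 was higher and 1 lower, beside the same shares of all tested genes. Their median log2 fold was 0.14. STX4, a syntaxin, fell from 39.2 ± 0.705 to 28.8 ± 1.79 TPM, and ZDHHC20, a palmitoyltransferase that modifies IFITM3, was at 35.5 ± 4.44 and 44.9 ± 3.30 TPM, a call lost without transfected replicate 2 or 3 (adjusted p = 0.117 and 0.127) and with no variance trend (0.0567). Of the 28 genes named beside the members, 11 overlap another gene of the table in the annotation, among them DTX3L, EIF2AK2, IRF3, LRRFIP1, PIAS1, SHFL and TRIM25, so their values are uncertain.

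The genes closest to each member in profile were found by the root-mean-square difference of mean-centred log2(TPM + 1) over the 6 libraries, among the 12003 genes that averaged 5 TPM or more. For IFIT2 these were KRCC1 and ZNF239 (differences of 0.070 and 0.076), for IFIT5 ZRANB3 and MRPS18C (0.043 and 0.047), and for ISG15 PARTICL and MAIP1 (0.042 and 0.053). For IFITM1 they were NRTN and BLOC1S1 (0.081 and 0.083), and for IFITM2 PLPP5 and AP5B1 (0.016 and 0.018). No member was among the 2 closest genes of another member, though members under 5 TPM on average could not be chosen. With 2 of 12003 genes kept for each member, this cannot show whether the members share a profile.

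Of 11 genes listed as markers of HEK293 cells, 10 were tested, and VIM measured 407 to 447 TPM in untransfected and 550 to 560 TPM in transfected libraries. The markers' summed TPM was 747 to 806 in untransfected and 965 to 970 in transfected libraries. Of the 10 tested, 5 were higher, beside 20.04% of all tested genes. The part of this in the members' values was not tested. Among the immune cell markers ITGAM, an integrin gene of myeloid cells, measured 0.09, 0 and 0.09 TPM in untransfected and 1.48, 1.29 and 1.01 TPM in transfected libraries and was called higher; the part of this in the members' values was not tested. Of 7 fibroblast and endothelial markers 4 had a row, with summed TPM of 27.8 to 31.9 and 22.5 to 25.4. Of the 3 tested, 0 were called, beside 20.04% of all tested genes called higher and 10.18% lower. Mitochondrially encoded mRNAs took 30.0% to 36.4% of TPM in untransfected and 27.1% to 30.0% in transfected libraries. On the second principal component (16.6% of variance) transfected replicate 1 and untransfected replicate 3 stood apart from the other 4 libraries; with both left out the log2 folds were 0.97 for IFIT2, 0.57 for IFIT5, 0.50 for ISG15, -0.60 for IFITM1 and -0.20 for IFITM2, all past the threshold.

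**Figure D5:**
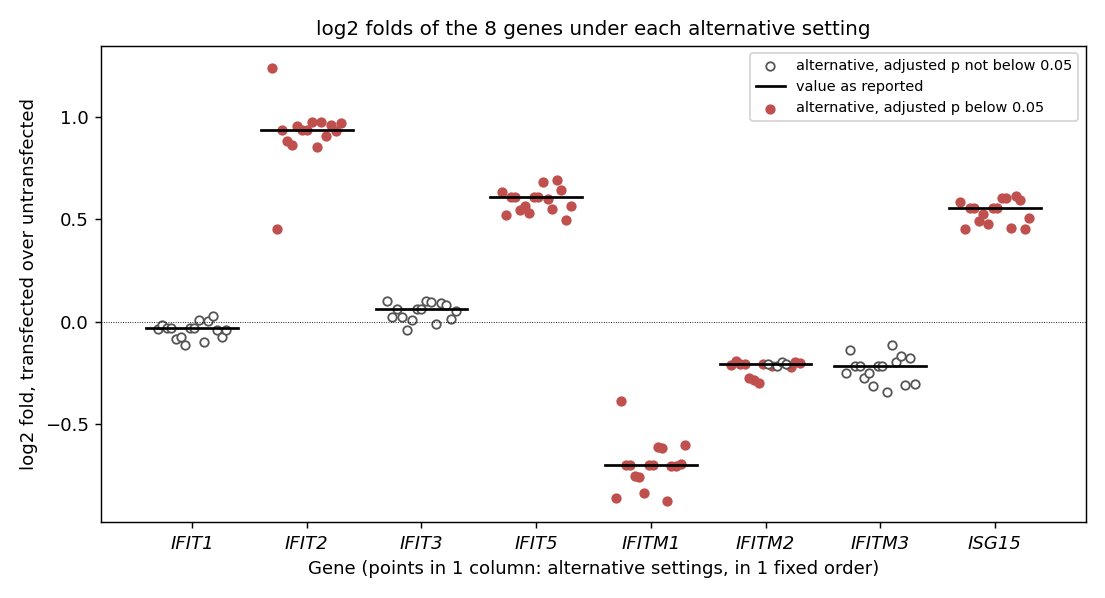
log2 fold of each member (y axis) under each alternative setting, red where the adjusted p was below 0.05 and open where it was not, with a black line at the value reported. The folds of IFIT2, IFIT5, ISG15 and IFITM1 keep their sign and stay past the threshold in every alternative in which the gene was tested, those of IFITM2 keep their sign, and those of IFIT1 and IFIT3 lie on both sides of 0.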

How the data were processed

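The authors deposited TPM per gene and library; per the submitters' processing notes STAR and the GRCh38 genome were used. Libraries were stranded total RNA, read as 75-base pairs, per the labels' protocols; the sources used here do not state the counting tool, its strand setting or the annotation. Of 18298 rows, 134 repeated an Ensembl ID with identical values and were dropped. Each library then summed to 1000000 TPM within 1, so depth is unknown and no counting interval is given. Genes reaching 1 TPM in 3 or more libraries were compared on log2(TPM + 1) with limma 3.58.1 (R 4.3.3; group as the only term, variance trend, two-sided, Benjamini-Hochberg over all tested genes). The script was tested on simulated data. Fold changes on this scale understate changes of low genes. Coordinates and overlaps came from GENCODE 29 (GRCh38).

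The members, gene lists, tests and alternatives were chosen with earlier results of these data known. Named genes were all members and up to 4 passing genes per list by size of fold (the 2 highest in TPM where fewer than 2 passed). The nearest coding genes with a row on each side of a locus and the 2 closest profiles were also named. Alternatives were pseudocounts of 0.1 and 5, no filter and a filter of 5 TPM, 3 other scalings (median-ratio, quantile, and rescaling once mitochondrial genes and the 20 top genes were removed), a fit with a constant prior variance, a replicate block, each library left out in turn, and 2 libraries left out together. Protein sequences were not used here. Some listed genes are not reported here.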

Additional observations from a re-analysis of the deposited data

How the results depend on the processing

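Of the 8 genes, 5 kept their direction and their side of the threshold under all of the 16 alternatives in which they were tested (15 for IFIT2, which the filter of 5 TPM removed): IFIT2, IFIT5, ISG15, IFITM1 and IFITM3. The count of members called lower was 1 instead of 2 with the replicate block, through IFITM2 (limma, adjusted p = 0.0920). With single libraries left out it was 1 to 2, again through IFITM2. Among the other named genes, the replicate block also removed the calls of PIAS1 (adjusted p = 0.0859), IRF3 (0.106), EIF2AK2 (0.0648) and TRIM25 (0.0978). It likewise removed those of USP16 (0.0548), ZDHHC20 (0.0706) and B4GALNT4 (0.0632). The r of deviations across genes between same-numbered libraries was -0.184, 0.107 and -0.163. The best match of transfected replicate 1 was untransfected replicate 3 (0.309). Deviations from a mean of 3 libraries are tied to each other, so these values cannot tell whether same-numbered libraries were paired. The log2 fold of IFIT1 ranged from -0.097 to 0.027 and that of IFIT3 from -0.013 to 0.104 with single libraries left out, and IFIT3 was -0.039 after quantile normalization. Over all tested genes, 2999 were higher and 2874 lower after median-ratio scaling, 2922 and 2887 after quantile normalization, and 2749 and 3241 with mitochondrial and the most abundant genes removed, against 3236 and 1644. The cause was not tested. With single libraries left out 1820 (without transfected replicate 2) to 2955 were higher and 965 (without the same library) to 2027 lower. The depth of the libraries is unknown, which limits what the lowest members, IFIT2 and IFIT3, can show.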
